A study of Glycine max with 6 samples.

Results

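The data concern 12 cDNA clones of 5 housekeeping genes in soybean roots, out of 18361 clones printed on the array. The clones were taken as those tied to a row with a single gene symbol that was TUBB3, GAPC1, RPS6, RPS13 or H4. TUBB3 had 2 clones, GAPC1 had 2, RPS6 had 2, RPS13 had 1 and H4 had 5. The choice was by symbol alone. The purpose was to see how each clone read in the roots, how much it varied between arrays, and how closely its level was bounded between the lines, since a reference gene has to be steady across the samples it is used to scale.

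Roots of Clark, an Fe-efficient soybean, and of its near isogenic line IsoClark, which is Fe-inefficient, were compared after growth in Fe sufficient hydroponics. Both lines therefore had the same iron supply, and no Fe-limited sample was analysed here. Each array carried RNA of both lines, and is called here an IsoClark-Cy3 or an IsoClark-Cy5 array after the dye that marked IsoClark, with Clark in the other dye. The 6 arrays were 3 biological replicates with 1 array in each dye orientation, from 90 ug of RNA per labelling. The study's methods describe IsoClark as derived from a cross of Clark with an Fe-inefficient donor, T203, by repeated backcrossing to Clark, and each sample as root tissue pooled over plants of a hydroponic unit, so the values describe 1 pair of lines and not single plants. The p-values and intervals rest on the spread over the 3 replicate values, drawn by limma toward a variance shared by all tested clones. In that spread pools and arrays cannot be told apart.

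Reference genes are usually drawn from functions that every living cell needs. Beta-tubulin builds the microtubules of the cytoskeleton and the mitotic spindle, cytosolic glyceraldehyde-3-phosphate dehydrogenase carries an energy-yielding step of glycolysis, ribosomal proteins, as which RPS6 and RPS13 are read here from their symbols alone, are parts of the protein-making machinery, and histone H4 is a core protein of the nucleosome that is made mostly while DNA is being copied. Histone and ribosomal protein transcripts are known to be abundant in dividing cells such as those of the root tip. The study's methods used tubulin amplification to scale its real time PCR. A cDNA spot can also bind transcripts of near-identical family members, and tubulins, H4 and cytosolic glyceraldehyde-3-phosphate dehydrogenases belong to such families in plants. The spots therefore cannot tell a named gene from its close copies.

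The spots differed widely in quality between arrays. Between 18.9% and 44.2% of cDNA spots per array were called poor by the image program, and those spots were not used for ratios. Of the 72 spots of the 12 clones, 17 were poor, and 15 of the 33 replicate values of the tested clones come from a lone array, so that dye and line are not balanced in them. The replicate 2 IsoClark-Cy5 array stood apart, with a mean correlation of log2 brightness with the other arrays of 0.34 against 0.59 to 0.71 for the rest, and its labelling protocol names the other dye than its label field. Line ratios of the paired arrays of a replicate correlated at 0.11, -0.06 and -0.08 across clones in replicates 1, 2 and 3, so across clones the line ratios agreed little between dye orientations. Among the tissue marker lists, all 5 root genes lay above background in both lines, as did the 3 leaf genes, 10 seed genes and 1 nodule gene that were on the array. The median clone ratio of these lists lay between -0.08 for root and 0.06 for nodule. Summed over the seed list, signal over background reached 171 to 683 in IsoClark and 135 to 558 in Clark, the part of which in the members' values was not tested.

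The first question was whether the housekeeping clones gave a usable signal in the roots. A spot was counted as above background when its mean signal exceeded the local background median by more than 2 background SD. The 6 clones above background on all 6 arrays in both lines were GAPC1 Gm-r1021-1799, both RPS6 clones, the RPS13 clone and the H4 clones Gm-r1021-3077 and Gm-r1083-162. TUBB3 Gm-r1021-1828 and H4 Gm-r1083-450 were above background on 5 arrays, H4 Gm-r1083-1968 and Gm-r1083-2002 on 4, GAPC1 Gm-r1021-3248 on 3 and TUBB3 Gm-r1070-4295 on 2. The last was not tested, since at least 3 arrays were required. On single arrays 85.1% to 98.7% of spots were above background, so a member above it does not stand apart from the rest.

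**Figure D1:**
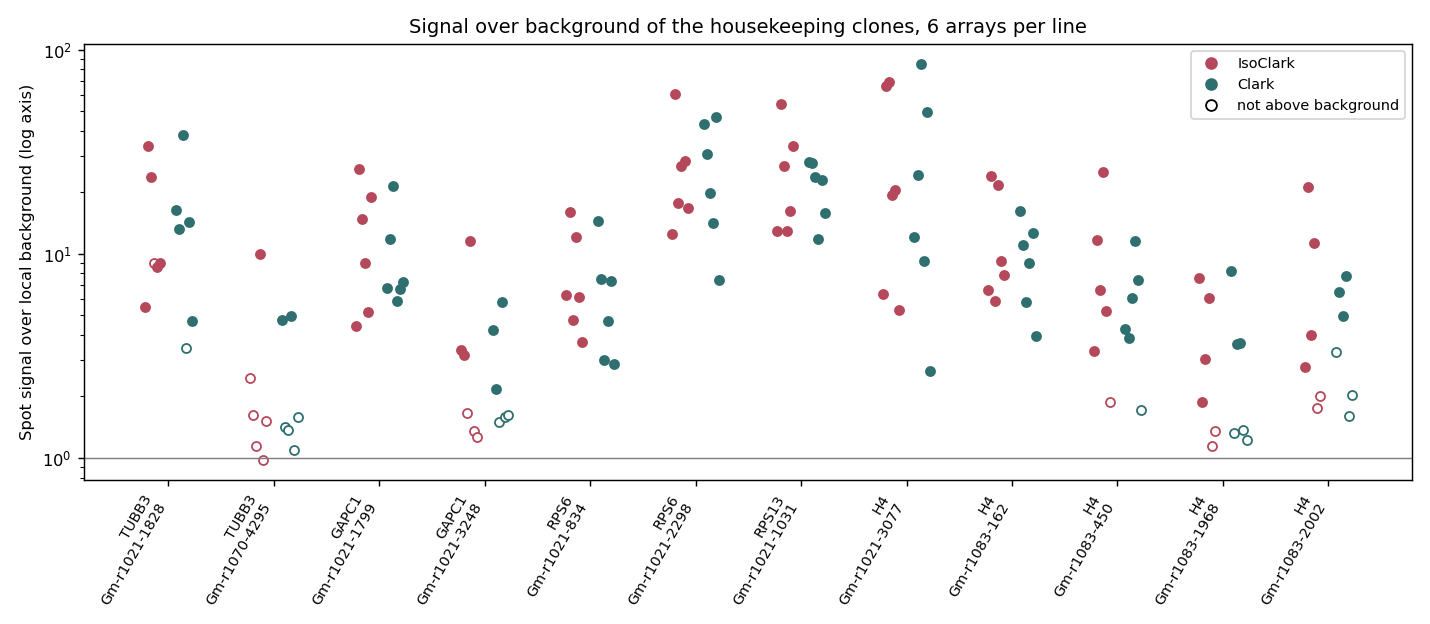
Spot signal divided by local background (log axis) for each of the 12 clones, 6 arrays in IsoClark and 6 in Clark. Open points were not above background. Both RPS6 clones and the RPS13 clone lie well above 1 on every array, and 4 of the 6 TUBB3 Gm-r1070-4295 arrays have open points in both lines.

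Signal ranges and brightness ranks are given over all arrays, spots called poor included, unless stated. RPS13 Gm-r1021-1031 gave a signal of 12.9 to 54.3 times background in IsoClark, with a median of 21.6. In Clark it gave 11.7 to 28.2 times background, with a median of 23.4. It was brighter than 80.8% to 98.3% of all cDNA spots of its array, the narrowest band of brightness ranks but for RPS6 Gm-r1021-834. The reading of 54.3, on a saturated spot, and the rank of 98.3% came from spots called poor. On its usable arrays RPS13 read at most 26.9 times background in IsoClark and ranked at most at 93.9%. RPS6 Gm-r1021-2298 was of similar quality, at 12.5 to 60.8 times background in IsoClark and 7.45 to 46.9 times in Clark, and ranked between the 78.1 and the 96.5 percentile of spot brightness. The other RPS6 clone, Gm-r1021-834, read 3.70 to 16.0 times background in IsoClark and 2.89 to 14.4 times in Clark, and kept between the 36.3 and 49.4 percentile. A brightness rank describes the spot, since printed amount and probe length differ, and it does not order the transcripts.

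TUBB3 Gm-r1021-1828 ranged more widely, from 5.45 to 33.8 times background in IsoClark and from 3.44 to 38.1 times in Clark. Its brightness rank ran from the 20.7 percentile on the replicate 2 IsoClark-Cy5 array to the 94.4 percentile on the other array of the same replicate. The second tubulin clone, Gm-r1070-4295, was at most at 1.63 times background in IsoClark on the arrays where its spot was usable, and at most at 1.58 times in Clark. Its higher readings, up to 10.0 times background, came from spots called poor.

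GAPC1 Gm-r1021-1799 lay between 4.42 and 26.1 times background in IsoClark and between 5.88 and 21.5 times in Clark. GAPC1 Gm-r1021-3248 was dim, with medians of 2.42 and 1.90 times background, and 2 of the 3 arrays that carried it past the filter were poor spots. The 5 H4 clones spanned the whole range of quality. Gm-r1021-3077 reached 69.3 times background in IsoClark and 85.3 times in Clark and was saturated on 2 arrays, Gm-r1083-162 stayed between the 38.9 and 65.1 percentile of brightness, and Gm-r1083-1968 ran from the 0.87 to the 97.5 percentile. The 97.5 percentile came from a spot called poor, and the usable spots of Gm-r1083-1968 reached at most the 39.2 percentile.

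The second question was whether any housekeeping clone differed between the lines. A line ratio is the log2 of IsoClark divided by Clark, and means are given with the SD over replicates (n = 3), each replicate being the mean of its usable arrays. In limma, 0 of the 11 tested members reached the adjusted p threshold of 0.05, with Benjamini-Hochberg adjustment over all 13430 clones tested, of which 0% reached it. The smallest adjusted p was 0.796 for the members as for all clones. At an unadjusted p under 0.05, limma called 1 of the 11, against 743 clones or 5.53% of those tested. The members' ratios ranged from -0.10 to 0.38, with 6 above 0 and 5 below, and their median was 0.13. The typical tested clone had an absolute ratio of 0.12 and an SD between replicates of 0.22.

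A p that misses the threshold does not show equal levels, so the bound on the difference was taken as the measure of a reference. A change of 2-fold is the least that the study's methods counted as differential. The 95% limma interval lay within 2-fold for all 11 tested clones, and 97.9% of all tested clones met that limit too. Within 1.5-fold it lay for 8 of 11, against 76.1% of all tested clones. Neither share stands apart from the rest of the array. The shared variance draws the intervals toward a like width, so a bound does not measure a clone's own spread alone. RPS13 Gm-r1021-1031, with an SD of 0.10, had an interval of -0.40 to 0.19. H4 Gm-r1021-3077, with an SD of 0.55, had an interval of -0.57 to 0.42. The 3 clones whose interval passed 1.5-fold were H4 Gm-r1083-450, RPS6 Gm-r1021-834 and H4 Gm-r1083-2002. Every pair of the 11 intervals overlapped, since the highest lower limit was 0.02 and the lowest upper limit 0.19. Overlap does not compare the bounds themselves, and their order was not tested.

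**Figure D2:**
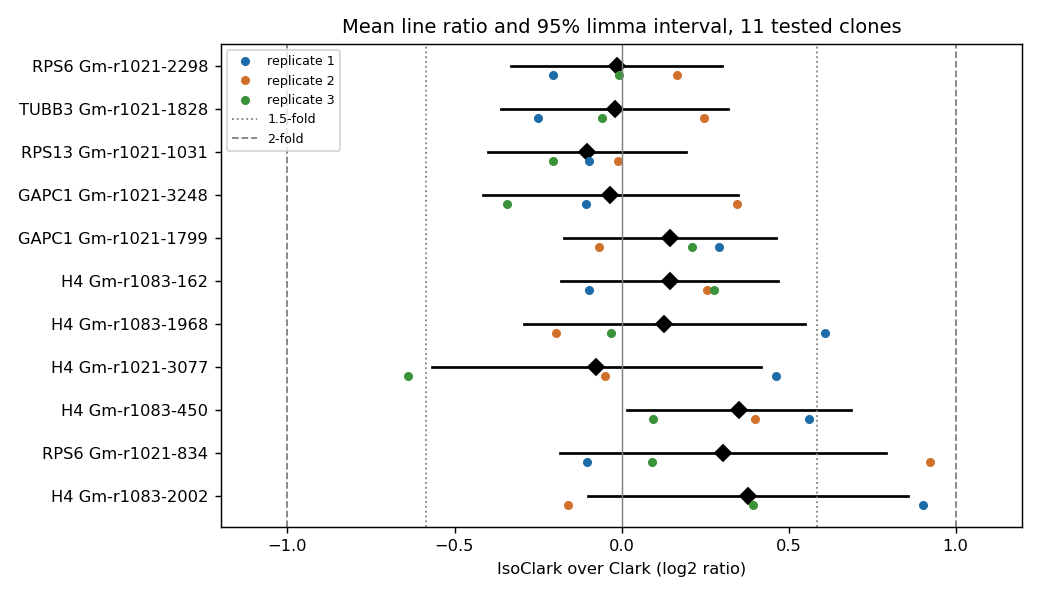
Mean line ratio (diamonds, log2 IsoClark over Clark) with its 95% limma interval for the 11 tested clones, ordered from the tightest bound at the top, with the 3 replicate values as coloured points. All intervals lie inside the 2-fold lines, and the lowest 3 cross the 1.5-fold line on the IsoClark side.

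The tubulin ratio was close to 0 on average but not on single arrays. TUBB3 Gm-r1021-1828 was usable on all 6 arrays, and its line ratio was -0.76 and 0.26 in replicate 1, -0.41 and 0.91 in replicate 2, and -0.17 and 0.05 in replicate 3, the IsoClark-Cy3 array being listed before its partner. All 3 IsoClark-Cy3 arrays were below 0 and all 3 IsoClark-Cy5 arrays were above 0. After normalization the Cy5 channel was thus the brighter on each array, whichever line it held. Averaging the dye orientations gave -0.25, 0.25 and -0.06 in replicates 1, 2 and 3, a mean of -0.02 ± 0.25 (SD, n = 3) with an interval of -0.36 to 0.32 (limma adjusted p = 0.986). Its widest limit, 1.28-fold, was the second tightest of the members. The spot at 0.91 was not above background in either line, and without that array the mean was -0.24.

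Turned to Cy5 over Cy3, the same spots gave 0.51, 0.66 and 0.11 in replicates 1, 2 and 3, a mean of 0.43 ± 0.29 (SD, n = 3). The limma test of this dye difference gave an adjusted p of 0.215 over the 2618 tested clones usable on all 6 arrays, of which 0% passed 0.05 and 321 had an unadjusted p under 0.05. One sign of Cy5 over Cy3 on all 6 arrays was met by 7.68% of those clones. H4 Gm-r1083-162, the only other member usable on all 6 arrays, had dye differences of 0.03, 0.03 and 0.05.

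The dim tubulin clone, Gm-r1070-4295, had replicate ratios of -0.11, -1.22 and -0.29 and was not tested. The replicate 2 value came from 1 spot at 1.15 times background in IsoClark and 1.36 times in Clark, neither of them above background. With both clones averaged and no filter on dim spots, the TUBB3 ratio was -0.28.

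GAPC1 was measured by a bright and a dim clone. Gm-r1021-1799 had array ratios of 0.34 and 0.24 in replicate 1, -0.48 and 0.35 in replicate 2, and 0.21 on the usable array of replicate 3. Its replicate values were 0.29, -0.07 and 0.21, with a mean of 0.15 ± 0.19 (SD, n = 3), an interval of -0.17 to 0.46 and a limma adjusted p of 0.840. The array with the value of -0.48 was the only one below 0. Gm-r1021-3248 had replicate values of -0.10, 0.35 and -0.34 and a mean of -0.03 ± 0.35 (SD, n = 3). All 3 of its usable arrays in replicates 2 and 3 were at or under 1.66 times background, and its interval of -0.42 to 0.35 rests on spots of that kind. The GAPC1 gene mean was 0.06 ± 0.11 (SD, n = 3). Its clones had opposite signs in every replicate, so that SD is smaller than the SD of either clone. With only spots not called poor counted toward the filter, the dim clone dropped out and the gene SD was 0.19. With the deposited ratios it was 0.66.

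RPS6 gave the tightest and one of the loosest bounds. RPS6 Gm-r1021-2298 had array ratios of -0.45 and 0.04 in replicate 1, 0.19 and 0.14 in replicate 2, and -0.01 on the usable array of replicate 3. Its replicate values of -0.20, 0.17 and -0.01 averaged -0.01 ± 0.19 (SD, n = 3), with an interval of -0.33 to 0.30 (limma adjusted p = 0.990). The widest limit was 1.26-fold, and 7.91% of all tested clones had a tighter one. One of its spots was saturated.

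RPS6 Gm-r1021-834 differed between replicates. Its array ratios were -0.12 and -0.09 in replicate 1, 0.92 on the usable array of replicate 2, and 0.09 on the usable array of replicate 3. The mean of 0.30 ± 0.55 (SD, n = 3), with an interval of -0.18 to 0.79 (limma adjusted p = 0.796), rests on the replicate 2 IsoClark-Cy5 array. The other array of that replicate read 1.01 on a spot called poor. Without replicate 2 the mean was -0.01. An SD smaller than this one was found for 92.9% of all tested clones, and one smaller than that of Gm-r1021-2298 for 39.5%. The SDs of the RPS6 clones come from 3 values each and were not tested against each other. The RPS6 gene mean was 0.14 ± 0.36 (SD, n = 3).

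RPS13 had a small replicate spread, near that of the GAPC1 gene mean, whose single clones had SDs of 0.19 and 0.35. The replicate values of Gm-r1021-1031 were -0.10, -0.01 and -0.20, with a mean of -0.10 ± 0.10 (SD, n = 3) and an interval of -0.40 to 0.19 (limma adjusted p = 0.872). Only 14.4% of tested clones had a smaller SD. The replicate 2 value was the mean of 0.37 and -0.39 on its arrays, which lie further apart than the replicates do. Replicates 1 and 3 rest on 1 array each, the IsoClark-Cy3 array. Without the replicate 2 IsoClark-Cy5 array the mean was 0.02 and the SD 0.31, against an SD of 0.09 for the GAPC1 gene mean. The small spread of RPS13 therefore rests on that array.

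H4, with 5 clones, had ratios on both sides of 0. Gm-r1083-162 was usable on all 6 arrays, at -0.13 and -0.07 in replicate 1, 0.23 and 0.28 in replicate 2, and 0.23 and 0.32 in replicate 3. The arrays of each pair lay within 0.10 of each other, so the dye orientations repeated where those of TUBB3 did not. The mean was 0.14 ± 0.21 (SD, n = 3), with an interval of -0.18 to 0.47 (limma adjusted p = 0.844).

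H4 Gm-r1083-450 was the member with an unadjusted p under 0.05. It was above 0 on all 4 usable arrays, at 0.56 in replicate 1, at 0.44 and 0.35 in replicate 2, and at 0.10 in replicate 3. The mean was 0.35 ± 0.24 (SD, n = 3), with an interval of 0.02 to 0.69, a limma p of 0.0416 and an adjusted p of 0.796. The replicate 3 spot was not above background in either line. One sign in all 3 replicates was shown by 2 of the 11 tested members, this clone and RPS13 Gm-r1021-1031, against 29.1% of all tested clones.

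The remaining H4 clones varied more. Gm-r1021-3077 had replicate values of 0.46, -0.05 and -0.64, with a mean of -0.08 ± 0.55 (SD, n = 3), and 93.2% of tested clones had a smaller SD. Its replicate 1 value came from a lone saturated spot, and the replicate 2 IsoClark-Cy3 spot was saturated too. With saturated spots left out this clone was not tested, and the H4 gene mean was 0.25. Gm-r1083-2002 had values of 0.90, -0.16 and 0.39, a mean of 0.38 ± 0.53 (SD, n = 3) and the loosest bound of all members, 1.81-fold. Neither of its replicate 3 spots was above background in either line. Gm-r1083-1968 had values of 0.61, -0.20 and -0.03, and its replicate 3 value averaged arrays at -0.63 and 0.57, neither of them above background. Averaged over the 5 clones, replicates 1, 2 and 3 had 0.49, 0.05 and 0.02, or 0.19 ± 0.26 (SD, n = 3).

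**Figure D3:**
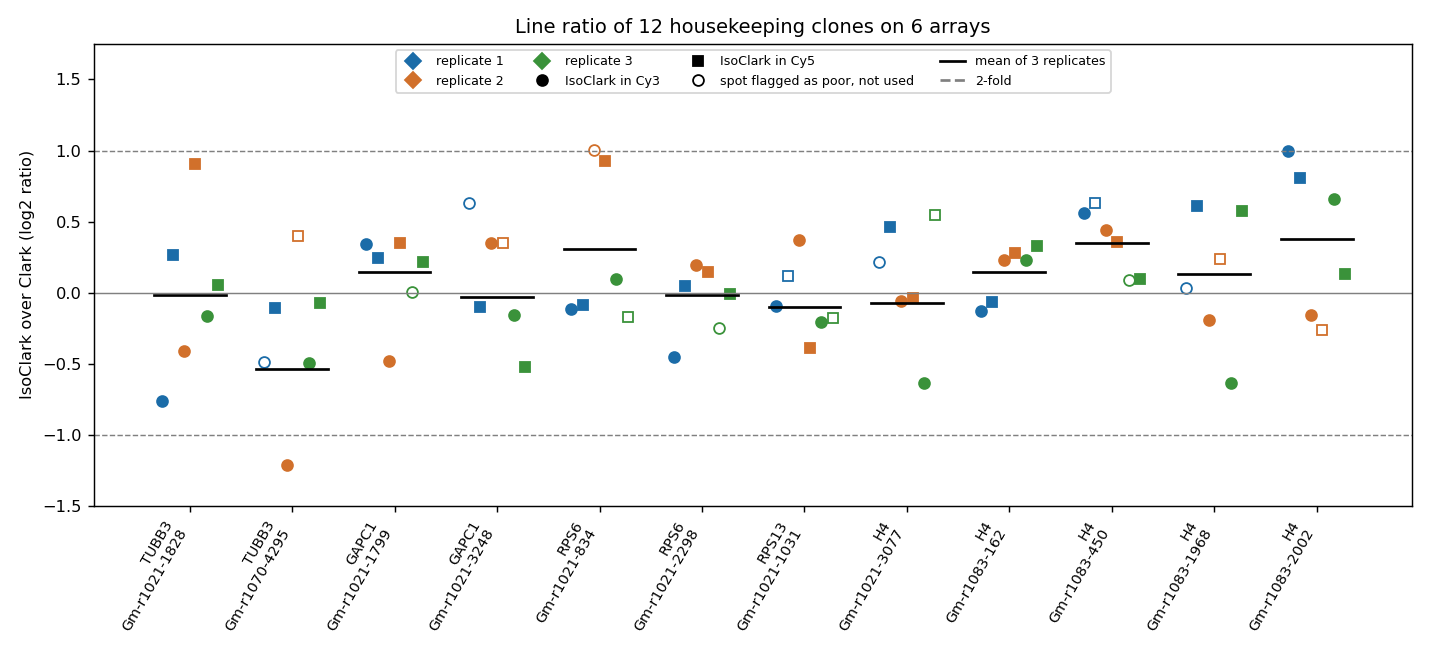
Line ratio (log2 IsoClark over Clark) of each of the 12 clones on each array, coloured by replicate, with circles for IsoClark-Cy3 arrays, squares for IsoClark-Cy5 arrays and open symbols for spots called poor. The circles of TUBB3 Gm-r1021-1828 lie below 0 and its squares above, while the symbols of H4 Gm-r1083-162 stay between -0.13 and 0.32.

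Averaging over genes narrowed the spread for some and not for others. The mean of the 5 genes was 0.02, 0.19 and -0.05 in replicates 1, 2 and 3, or 0.05 ± 0.13 (SD, n = 3). That SD was below those of TUBB3, RPS6 and H4 and above those of GAPC1 and RPS13. The SDs of the single genes come from 3 values each and were not tested against each other.

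The third question was how steadily the genes kept to each other over lines and replicates. Levels were taken from each channel after normalization between arrays and were centred on each gene's own mean, so that only their variation is compared. The SD of the log2 difference of a pair of genes over the 6 levels (3 replicates in both lines) was smallest for TUBB3 and GAPC1, at 0.30, and largest for TUBB3 and H4, at 0.92. The mean pairwise SD of a gene with the other 4, which is the stability measure M used to choose PCR references, was 0.52 for GAPC1, 0.52 for RPS6, 0.56 for TUBB3, 0.64 for RPS13 and 0.82 for H4. A lower M is steadier. The GAPC1 value averages clones whose levels did not move together. In IsoClark these were 12.4, 13.5 and 14.1 for Gm-r1021-1799 and 9.22, 9.77 and 8.73 for the dim Gm-r1021-3248 in replicates 1, 2 and 3. M is a description here, since each gene has only 6 levels and the lines of a replicate share arrays.

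The H4 value came from 1 replicate. In replicate 2 its level lay 1.04 above its own mean in IsoClark and 0.99 above in Clark, while the other 4 levels lay 0.24 to 0.72 below. Without replicate 2 the M of H4 fell to 0.43, while that of RPS13 was 0.65, so the place of H4 as the least steady gene rests on that replicate. The SD of the replicate levels, averaged over the lines, was 0.07 for RPS6, whose lines lay 0.55 apart in replicate 2. With levels centred on each array's median the RPS6 value was 0.24, as was that of RPS13. With the main normalization the SD was 0.36 for TUBB3, 0.38 for RPS13, 0.43 for GAPC1 and 0.88 for H4. The levels centred on array medians gave 0.54 for TUBB3, 0.56 for GAPC1 and 1.02 for H4. With M taken only over the 6 clones above background on every array, which leaves out TUBB3, the order changed to RPS6 at 0.51, H4 at 0.51, RPS13 at 0.70 and GAPC1 at 0.90.

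**Figure D4:**
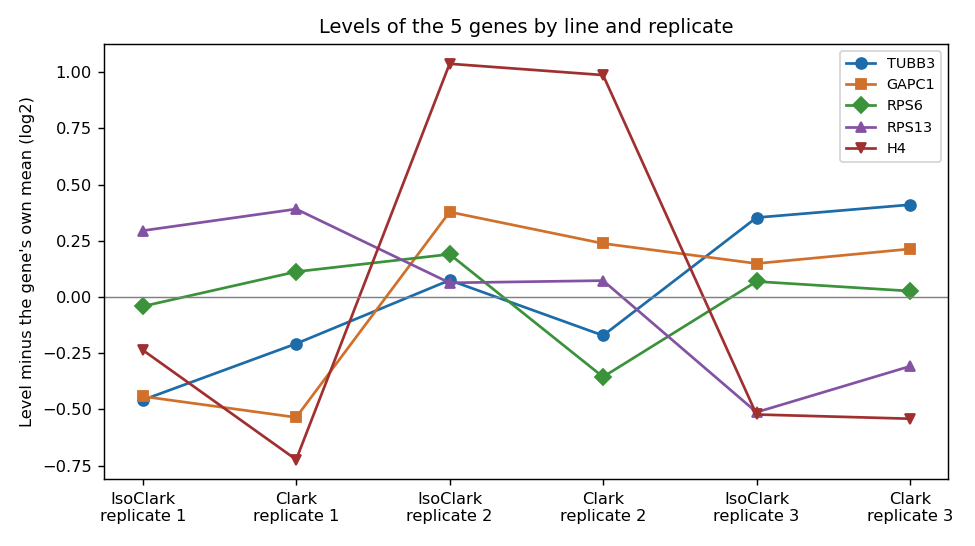
Level of each gene minus its own mean (log2) in IsoClark and Clark of each replicate, from the mean of the gene's tested clones. H4 stands 1.04 and 0.99 above its mean in replicate 2, while RPS6 stays between -0.36 and 0.19. Not all H4 clones rose in replicate 2.

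Scaling a gene to another member compares them on the same arrays. Of the 10 pairs, GAPC1 over RPS13 had the smallest spread, with IsoClark over Clark differences of 0.19, 0.15 and 0.14 in replicates 1, 2 and 3 and a mean of 0.16 ± 0.03 (SD, n = 3). RPS6 over H4 had the largest, at -0.64, 0.50 and 0.02 in replicates 1, 2 and 3, a mean of -0.04 ± 0.57 (SD, n = 3). The mean differences of the 10 pairs ran from -0.29 for RPS13 over H4 to 0.25 for RPS6 over RPS13. The small spread of GAPC1 over RPS13 rests on averaging GAPC1 clones of opposite sign in each replicate. These were at 0.29, -0.07 and 0.21 (Gm-r1021-1799) and at -0.10, 0.35 and -0.34 (Gm-r1021-3248). The pairs are given as descriptions. An exact two-sided sign-flip test over 3 replicates cannot go below p = 0.25.

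Other genes of the same functions were set beside the members. The candidate genes on the array were RPL2 and RPL37, proteins of the large ribosomal subunit, EF1BGAMMA4, a translation elongation factor subunit, INFA, an initiation factor, and PGM, a sugar phosphate enzyme by its symbol. They had 12 clones, of which 10 were tested and 0 had a limma adjusted p of 0.05 or less (smallest 0.796). Their intervals lay within 2-fold for 10 and within 1.5-fold for 7, against 97.9% and 76.1% of all tested clones, so these counts do not set the candidates apart. RPL37 had the smallest spread, with replicate values of 0.03, 0.05 and 0.14 and a mean of 0.07 ± 0.06 (SD, n = 3) over 4 clones. PGM had the largest, at 0.58, -0.39 and 0.01, but PGM and INFA had 1 clone each, so their spreads are not averaged over clones. The lowest mean was that of INFA, at -0.13 ± 0.25 (SD, n = 3), and the highest that of RPL37.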

How the data were processed

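RNA of both lines was measured on 6 spotted arrays. The authors quantified the spots with ImaGene 6.1.0, per the file headers, and deposited unnormalized intensity values of each spot and its local background, together with a quality call. A series table of log2 ratios by the authors was deposited too, whose background correction and scaling are not given in the sources used here. Against Cy5 over Cy3 its columns had r of -0.85, 0.86, -0.85, 0.84, 0.80 and 0.93 (replicates 1 to 3, the IsoClark-Cy3 array first), so the column of the replicate 3 IsoClark-Cy3 array runs opposite to the others. The column medians were 0.11, 0.05, 0.08, -0.06, 0.04 and -0.28, and the scale stays unknown, so the table served as an alternative. Gene symbols belong to its rows, and rows were tied to clones by clone number plus 1 shift per clone set, found from the values (mean absolute r of 0.85 to 0.88 at the shift used, at most 0.23 at the next).

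Signal mean and background median were corrected with normexp (offset 50) and normalized by global loess in limma 3.58.1 (R 4.3.3), with weight 0 for blank and poor spots. The offset pulls the ratios of dim spots toward 0. The dye in the label field set each ratio's direction, the arrays of a pair were averaged, and the 3 values were tested with limma's moderated statistic (lmFit, eBayes) under Benjamini-Hochberg adjustment. A clone was tested when above background in either channel on at least 3 arrays, whatever the flag, and measured in 3 replicates. Channel levels were set equal between arrays with Aquantile. The test was checked on simulated data. Array number limits the precision. All clones of the 5 genes are named, and other candidates were chosen by gene function. The members and lists were chosen with earlier results of these data known. Alternatives covered normalization, background correction, spot flags, saturation, filters, the deposited ratios, array direction, quantification day, the replicate block and each replicate left out. Sequences and coordinates are not given here.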

Additional observations from a re-analysis of the deposited data

Results flagged for a closer look

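On TUBB3 Gm-r1021-1828 the dye orientations opposed each other: the mean line ratio of the 3 IsoClark-Cy5 arrays exceeded that of the 3 IsoClark-Cy3 arrays by 0.85 on the log2 scale, and every array of one orientation lay above 0 while every array of the other lay below. Halved, this is the Cy5 over Cy3 difference of 0.43 whose limma adjusted p was 0.215. On GAPC1 Gm-r1021-1799 the replicate 2 IsoClark-Cy3 array read -0.48, far from the other 4 usable arrays, which lay between 0.21 and 0.35. It was the only clone of the 11 examined to have such a gap, and chance sets apart about 1 group in 20.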

How the results depend on the processing

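The members had 0 clones past an adjusted p of 0.05 in limma under all 16 alternatives, and the lowest adjusted p of a member was 0.608. Their intervals lay within 2-fold for 9 to 11 clones (9 to 12 tested). Within 1.5-fold the count was 8, and 5 to 9 over the alternatives, with 5 without replicate 2 and up to 7 when another replicate was left out. H4 Gm-r1083-162 (0.05 to 0.27), H4 Gm-r1083-450 (0.19 to 0.48) and H4 Gm-r1083-2002 (0.12 to 0.65) kept their sign throughout. The other 8 tested clones changed sign at least once, in 24 cases, and the cause was not tested. Under print-tip loess these were TUBB3 Gm-r1021-1828 (0.135), GAPC1 Gm-r1021-1799 (-0.036) and H4 Gm-r1021-3077 (0.018). Median centring gave 0.026 for RPS6 Gm-r1021-2298 and -0.017 for H4 Gm-r1083-1968. Uncorrected for background, GAPC1 Gm-r1021-3248 was 0.017, and without spot flags it was 0.090 and H4 Gm-r1021-3077 0.064. The deposited ratios gave -0.535 for H4 Gm-r1083-1968. Turning the replicate 3 IsoClark-Cy3 array gave 0.035 for TUBB3 Gm-r1021-1828, 0.020 for GAPC1 Gm-r1021-3248, 0.033 for RPS13 and 0.351 for H4 Gm-r1021-3077. Turning the replicate 2 IsoClark-Cy5 array gave -0.312 for RPS6 Gm-r1021-834, 0.027 for RPS13 and -0.323 for TUBB3, and leaving it out gave 0.023 for RPS13. With the quantification day as a term, H4 Gm-r1021-3077 was 0.059, and 5 of all tested clones, no member among them, passed the adjusted p. Leaving out each replicate in turn gave -0.154 (without replicate 2) to 0.094 (without replicate 1) for TUBB3 Gm-r1021-1828, -0.223 to 0.121 (without replicates 2 and 3) for GAPC1 Gm-r1021-3248, -0.0056 to 0.508 (without replicates 2 and 1) for RPS6 Gm-r1021-834, -0.106 to 0.080 (the latter without replicate 1) for RPS6 Gm-r1021-2298, -0.345 to 0.207 (without replicates 1 and 3) for H4 Gm-r1021-3077, and -0.113 to 0.289 (without replicates 1 and 2) for H4 Gm-r1083-1968. With no filter on dim spots the TUBB3 gene ratio was -0.278. Clones with an unadjusted p under 0.05 numbered 743, and 262 with the deposited ratios.

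M stayed between 0.43 and 0.76 for TUBB3, 0.40 and 0.90 for GAPC1, 0.38 and 0.71 for RPS6, 0.45 and 0.70 for RPS13, and 0.43 and 0.89 for H4, ranges that overlap. The SD of the replicate levels ranged more widely, from 0.20 to 1.10 for TUBB3 (1.10 without the replicate 2 IsoClark-Cy5 array), 0.09 to 0.81 for GAPC1, 0.0086 to 0.24 for RPS6, 0.16 to 0.53 for RPS13 and 0.04 to 1.09 for H4, so it gives the genes no firm order. Restricting M to bright clones was chosen after seeing the data. With the replicate block and a dye term over 6 arrays no clone's ratio changed sign, but the GAPC1 gene mean went from 0.06 to -0.0057. Low signal over background limits GAPC1 Gm-r1021-3248, TUBB3 Gm-r1070-4295, H4 Gm-r1083-1968 and H4 Gm-r1083-2002.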

Other observations

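The annotated genes whose line ratios followed those of a member most closely over the 6 arrays were found among 202 genes with usable spots on all 6. For TUBB3 they were GF14B (Pearson r = 0.94) and MYB50 (0.93), for GAPC1 they were SRC1 (0.98) and LOC606297 (0.93), for RPS6 they were H1 (0.85) and GY2 (0.82), and for H4 they were VLXB (0.88) and LOC732653 (0.88). RPS13 had no value on all 6 arrays. No single GAPC1 or RPS6 clone was usable on all 6 either, so the profiles of these genes draw on different clones on different arrays. These are descriptions over 6 arrays that share a dye orientation and a replicate in pairs, and they are the highest and the second highest of 202 values for each member.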
